A study of Sus scrofa domesticus with 4 samples.

Results

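The transforming growth factor beta (TGF-beta) ligands TGFB1, TGFB2 and TGFB3 and the receptors TGFBR1, TGFBR2 and TGFBR3 were followed in endometrium of early pregnant pigs cultured with orexin A (OXA). These 6 genes were chosen by symbol, and a probe was assigned to one through the RefSeq accession that the scanner files give for it. In this way 4 of the 6 were found among 3029 named genes, with 6 of 43603 probes: A_72_P035706 and A_72_P442849 for TGFB1, A_72_P223537 and A_72_P621617 for TGFB3, A_72_P035676 for TGFBR1 and A_72_P077506 for TGFBR3. TGFB2 and TGFBR2 are not analysed here.

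OXA is a hypothalamic peptide that acts on wakefulness and appetite, and the study asked how it affects transcripts of the uterine lining in early pregnancy. Slices of endometrium (3 mm, about 100 mg) were taken from the middle of the uterine horns of 4 gilts (Large White x Polish Landrace, aged 7 to 8 months) on days 15 to 16 of gestation. After 2 h of preincubation they were kept for 24 h with OXA, and control slices were kept for the same time with no addition, in duplicate cultures. The dose was 10 nM by the sample labels and 10 µM by the design text. Each of 4 2-colour arrays carried 1 OXA RNA and 1 control RNA. The dye labels of the samples give Cy5 to OXA on arrays 1 and 3 and Cy3 to it on arrays 2 and 4, while the protocol text describes Cy5 for OXA with no swap. The sample labels do not say whether an array paired RNAs of a single animal, and p-values measure the spread between arrays.

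TGF-beta ligands are secreted in a latent form bound to their own propeptide and are released by integrins and proteases. The active dimer joins the type II receptor TGFBR2 to the type I receptor TGFBR1, a kinase that phosphorylates SMAD2 and SMAD3, which enter the nucleus with SMAD4. TGFBR3 (betaglycan) is a co-receptor that presents ligand, TGFB2 above all. In the pig uterus the family is known for its presence at the boundary of conceptus and endometrium during attachment and for its control of matrix and immune cells.

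Markers of the labelled tissue were present. Of 10 endometrium genes with a named probe, 9 were measured, and each of these was well above background in all 8 readings (4 arrays in 2 dyes), among them ACP5 (uteroferrin), PGR and ESR1. PRLR was above it in 0 readings. The 8 measured epithelium genes were detected in every reading, as were LUM, COL1A2 and DCN, the 3 measured markers of stromal fibroblasts. THY1, a further stromal marker with a named probe, was detected in 3 readings. Trophoblast genes were mixed: TFAP2C was detected in 8 readings, GATA3 and HAND1 in 7 each, IFNG in 4 and CDX2 in 0. The slices thus hold several cell types, and in such RNA fewer cells of a type and less RNA per cell cannot be told apart.

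Array 1 stood apart. It was on a slide of its own, was scanned 71 days after the others, and had 31.7% of probes well above background in Cy3, against 52.0% to 56.7% on arrays 2 to 4. In Cy5 the share was 62.3% to 74.5%. No spot was saturated. Over 26927 tested probes the log2 ratios of pairs of arrays correlated between -0.29 and 0.42, and the pairs with OXA in the same dye at 0.11 and 0.07. With 4 arrays the precision of each value below is limited.

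The background step bears on these genes directly. Normexp, which models background and signal together, fitted a background mean far below 0 on arrays 2 to 4 (-397 to -2113 intensity units, against -96.4 and -130 on array 1). It therefore added a median of 437 to 2350 units to spots of those arrays and 94.0 to 130 units to those of array 1. A TGFBR1 spot held only 220 to 368 units before correction, so its ratios were drawn toward 0. Ratios with no background correction are given beside the normexp ratios for that reason. They keep the background in both dyes, so they are no full remedy for a dim spot. For TGFBR1 they ran from -0.22 to 0.06, against -0.68 to 0.22 in Agilent's background-subtracted log ratio.

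TGFB1, the prototype ligand of the family, did not pass the test for a difference with OXA. Its brighter probe had processed signals (Agilent's background-subtracted and dye-normalized intensities) of 709, 2147, 2338 and 1971 in OXA-treated tissue on arrays 1 to 4, against 625, 2773, 1944 and 1898 in control tissue. OXA was thus above control on arrays 1, 3 and 4 and below it on array 2, and the groups overlapped. After normexp and loess the log2 ratios of OXA over control were 0.30, -0.32, 0.35 and -0.06. Their mean was 0.07 ± 0.31 (SD, n = 4). The limma fit gave 0.07 (SE 0.07; adjusted p = 0.763 over all probes), with a 95% interval from -0.13 to 0.27. With no background correction the ratios were 0.25, -0.26, 0.24 and 0.01 and the interval was wider, from -0.27 to 0.39.

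**Figure D1:**
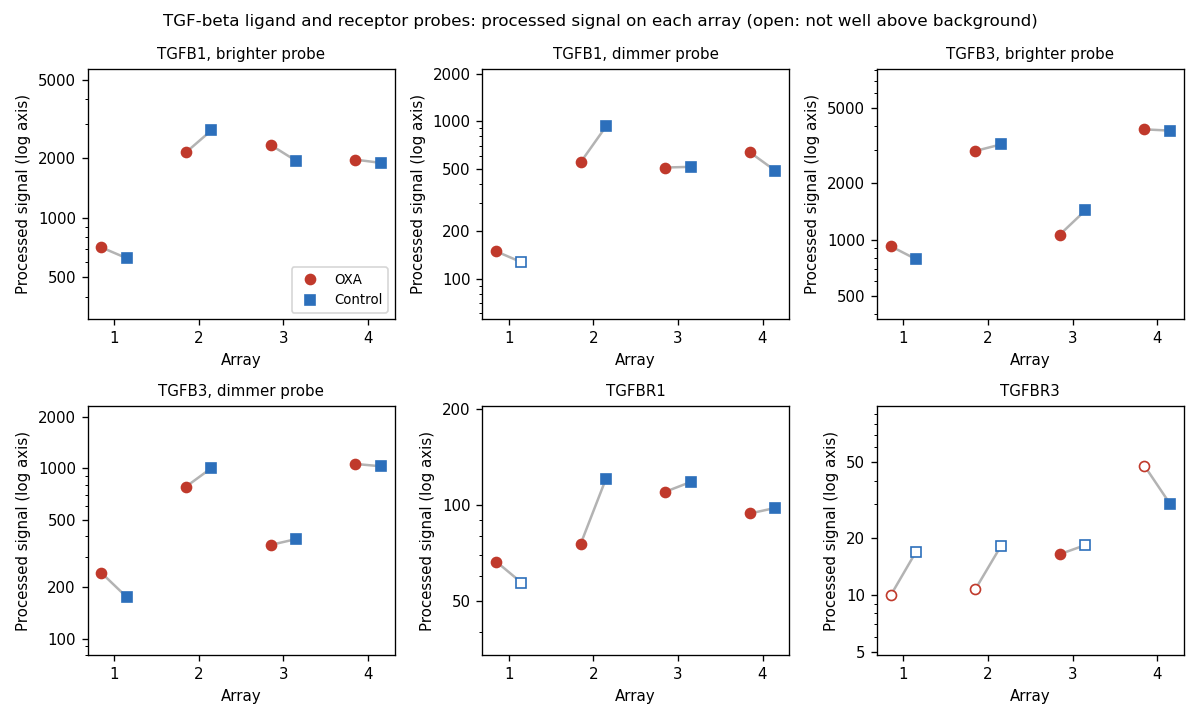
Processed signal (log axis) of the 6 TGF-beta probes on arrays 1 to 4, with OXA (circles) left of control (squares) and a line joining the RNAs of 1 array; open symbols mark readings not well above background. For TGFB1 the brighter probe ran from 709 to 2338 with OXA, against 625 to 2773 in control, and TGFBR3 was filled in only 2 of 8 readings.

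The dimmer TGFB1 probe gave signals of 149, 549, 508 and 635 with OXA, against 127, 928, 513 and 485 in control, where 3 of 4 arrays were well above background. Array 2 was the only one with a clear drop. Its log2 ratios were 0.08, -0.38, 0.02 and 0.04, so that 3 of 4 lay within 0.1 of 0. The fitted value was -0.06 (SE 0.09; adjusted p = 0.801 in limma), of opposite sign to the brighter probe. Both probes were low on array 2 and above 0 on arrays 1 and 3. Averaged over both, TGFB1 was 0.00 ± 0.25 (SD, n = 4; exact two-sided sign-flip permutation p = 1, where 0.125 is the smallest p that 4 arrays allow).

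The 2 dyes split the brighter TGFB1 probe. Its mean log2 ratio was 0.32 over the arrays with OXA in Cy5 and -0.19 over those with OXA in Cy3, and the dye coefficient of the fit (0.25) exceeded the OXA coefficient (0.07). If OXA is taken to be Cy5 throughout, as in the protocol text, the value was 0.25 (SE 0.07). In limma its unadjusted p was 0.0149 and its adjusted p 0.905, with a fold of 1.19. On that reading the brighter probe was thus higher with OXA before adjustment for the number of probes. The dimmer probe was 0.11 there (unadjusted p = 0.256 in limma). With no background correction the brighter probe was 0.18 on that reading (unadjusted p = 0.158 in limma). No adjusted p passed under either reading, while the sizes differed.

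**Figure D2:**
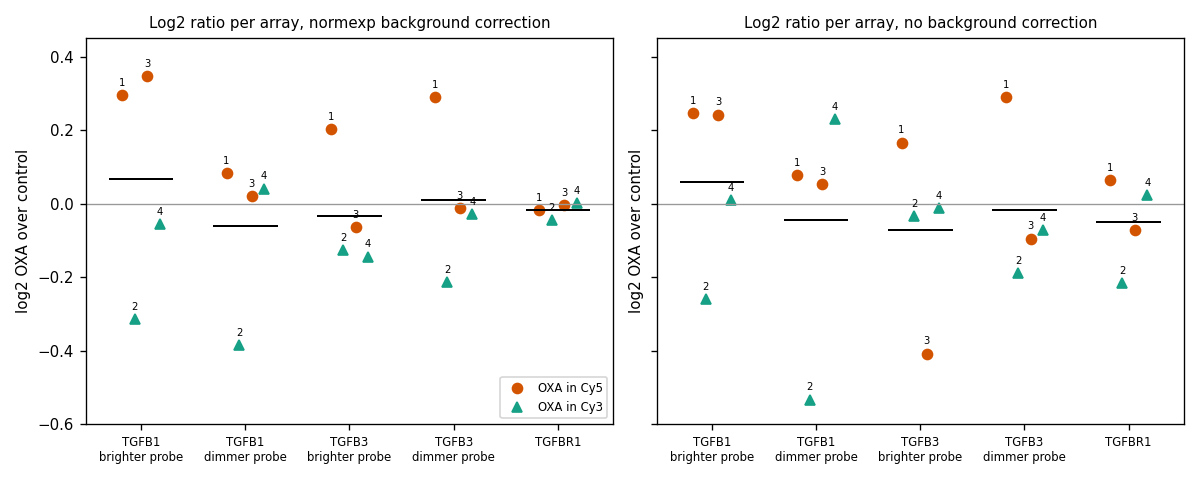
Log2 OXA over control on each array (numbers 1 to 4) for the 5 probes that passed the filter on dim spots, with normexp background correction (left) and without background correction (right); black bars are means, circles have OXA in Cy5 and triangles OXA in Cy3. TGFB1 lay lowest on array 2 in both panels, and the TGFBR1 points spread from -0.22 to 0.06 on the right but from -0.05 to 0.00 on the left.

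TGFB3, a ligand with a part in tissue remodelling, did not pass the test either. Its brighter probe had processed signals of 923, 2961, 1064 and 3859 with OXA, against 787, 3206, 1429 and 3800 in control. Signals differed more between arrays than within one, and the groups overlapped. The normexp log2 ratios were 0.20, -0.13, -0.06 and -0.14, with a mean of -0.03 ± 0.16 (SD, n = 4). The fitted value was -0.03 (SE 0.07; adjusted p = 0.854 in limma; 95% interval -0.23 to 0.17). With no background correction array 3 stood at -0.41 in place of -0.06 and the interval ran from -0.44 to 0.29. Without array 3 the fitted value was 0.03, in a fit where array 1 (0.20) was the only array left with OXA in Cy5. Without array 1, which leaves the slide of arrays 2 to 4, the fitted value was -0.10.

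The dimmer TGFB3 probe had signals of 243, 781, 355 and 1061 with OXA, against 175, 1004, 384 and 1028 in control. It was highest on array 1 (0.29), like the brighter probe, and lowest on array 2 (-0.21), where the brighter probe was lowest on array 4. The fitted value was 0.01 (SE 0.08; adjusted p = 0.967 in limma). The mean over both probes was -0.01 ± 0.18 (SD, n = 4; exact two-sided sign-flip permutation p = 0.875). Both TGFB3 probes and both TGFB1 probes were above 0 on array 1 and below it on array 2. OXA was in Cy5 on array 1 and in Cy3 on array 2, and the dye coefficients of these probes ran from 0.10 to 0.25. Over all tested probes the medians were 0.08 on array 1 and -0.01 on array 2. On array 1 the stromal fibroblast markers had a median of 1.44 and the epithelium markers one of -0.84. On array 2 those medians were 0.02 and -0.34, and the smooth muscle markers were at -0.93. The parts of dye and tissue makeup in the TGFB1 and TGFB3 ratios of these arrays were not tested.

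TGFBR1, the type I receptor kinase, was dim. It had processed signals of 66.6, 75.6, 110 and 94.1 with OXA, against 57.2, 121, 118 and 97.9 in control, and 7 of 8 readings were well above background (the control on array 1 was not). OXA was below control on arrays 2, 3 and 4 and above it on array 1. The normexp log2 ratios were -0.02, -0.05, 0.00 and 0.00, with a mean of -0.02 ± 0.02 (SD, n = 4). This narrow spread is no sign of precision, since the ratios had been pulled toward 0. With no background correction they were 0.06, -0.22, -0.07 and 0.02, and in Agilent's log ratio 0.22, -0.68, -0.09 and -0.06. The fitted values were -0.02 (SE 0.05; adjusted p = 0.900 in limma), -0.05 (SE 0.14; adjusted p = 0.932) and -0.15 (SE 0.25; adjusted p = 0.898) in that order. The last interval, -0.72 to 0.41, still allows folds from 0.608 to 1.33.

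TGFBR3, the co-receptor, was not measured well enough for a ratio. Its probe had processed signals between 9.95 and 47.9 with OXA, against 16.9 to 30.3 in control. It was well above background in 2 of 8 readings, 1 with OXA (array 3) and 1 in control (array 4), and did not pass the minimum of 4. No fold is given for it.

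**Figure D3:**
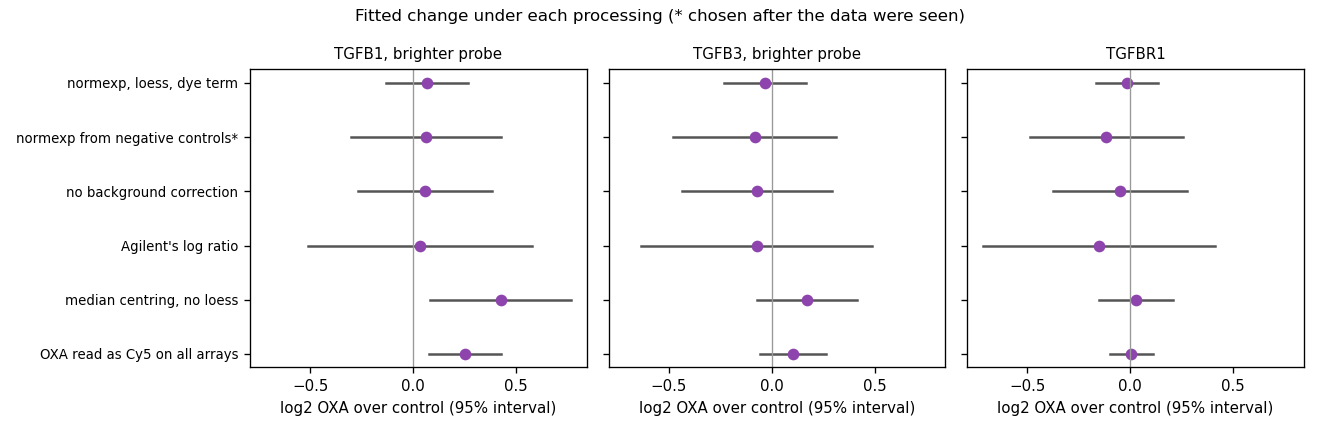
Fitted log2 OXA over control with 95% intervals (lines) for the brighter TGFB1 and TGFB3 probes and for TGFBR1 under 6 ways of processing. TGFB1 ran from 0.03 with Agilent's log ratio to 0.43 with median centring, and TGFBR1 had its widest interval, -0.72 to 0.41, with Agilent's log ratio.

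Of the 5 member probes tested, 0 passed an adjusted p of 0.05 in limma. A looser rule, an unadjusted p under 0.05 plus a fold of 1.2 or more, was also met by 0. Over all 26927 probes 0% passed the first rule and 1.30% the looser one (0.624% higher and 0.672% lower), with 1.86%, or 500 probes, at an unadjusted p under 0.05. At such background shares a count of 0 among 5 is no result about these genes. The sizes of the fitted changes, from -0.06 to 0.07, ranked between percentiles 6.1 and 43.9 of all tested probes. With no background correction 0 of the 5 passed either rule too, where 5.22% of all probes met the looser one (3.03% higher and 2.19% lower) and 0% passed the adjusted threshold.

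The TGFB1 value was higher without loess. With each array centred on its median in place of loess, the brighter TGFB1 probe was 0.43 (SE 0.12; unadjusted p = 0.027 and adjusted p = 0.275 in limma), its dimmer probe 0.14 and TGFB3 0.17 and 0.15, while the median of all probes moved to 0.14 from 0.02. TGFBR1 was 0.03 there. The brighter TGFB1 probe (fold 1.34) met the looser rule under this scaling. So did 4292 of all tested probes, against 349 with loess. The dye coefficient of the brighter TGFB1 probe was 1.19 under this scaling, against 0.25 with loess.

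By the likeness measure chosen, the root mean square difference over the 4 arrays, 3 of 2406 other named genes lay closest to the brighter TGFB1 probe. PAFAH1B1 (a dynein regulator) differed by 0.04 and CAMK1G (a calcium/calmodulin kinase) by 0.05. SKIV2L (an RNA helicase of the exosome pathway) differed by 0.06. All 3 were above 0 on arrays 1 and 3 and below 0 on array 2, which follows from their being picked for closeness to this probe. TGFB3 and TGFBR1 varied too little over arrays (SD 0.16 and 0.02, against the minimum of 0.3) for such a search.

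The rest of the pathway was read from 6 lists of 136 genes in all, of which 72 have a named probe and 63 were measured. Of these 28 were above 0 and 35 below it, with a median of -0.01, beside 1024 above and 1383 below among all 2407 named genes, with a median of -0.02. In limma 0 of the 63 passed an adjusted p of 0.05. The looser rule was met by 3, all lower with OXA, GDF15 and SMAD3 among them. Among all named genes 14 higher and 45 lower ones met it.

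**Figure D4:**
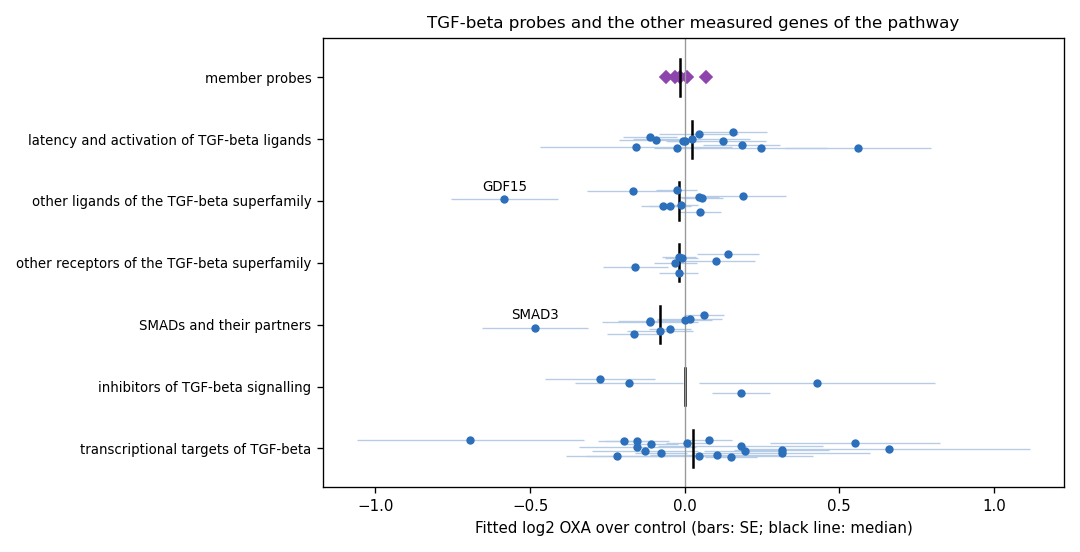
Fitted log2 OXA over control (normexp, loess and dye term) of the 5 tested TGF-beta probes (diamonds) and of measured genes of 6 pathway lists (circles, bars are SE), with the median of each row as a black line. GDF15 at -0.58 and SMAD3 at -0.48 lie apart from their lists, and the medians of the 6 lists run from -0.08 to 0.03.

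Genes that hold TGF-beta latent or release it had 7 of 13 members above 0 (median 0.02; 0 by the looser rule). ITGB3, an integrin subunit, had log2 ratios of 1.98, 0.04, 0.99 and -0.77, of both signs. Its fitted value was 0.56 (SE 0.24), and its other probe gave -0.42. ITGB5 and ITGB1, further integrin subunits, were 0.18 (SE 0.12) and 0.16 (SE 0.11). PLAT, the tissue plasminogen activator, was -0.11 (SE 0.09).

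Among other ligands of the superfamily 4 of 10 were above 0 (median -0.02). GDF15, a stress-induced member, had processed signals of 2635, 2504, 4121 and 1190 with OXA, against 6250, 4552, 7940 and 1234 in control. OXA was below control on all 4 arrays, barely so on array 4, with log2 ratios of -1.12, -0.70, -0.49 and -0.03. The fitted value was -0.58 (SE 0.17; unadjusted p = 0.0292 and adjusted p = 0.763 in limma). It was -0.71 with no background correction. The looser rule was not met with median centring (-0.08), with OXA taken to be Cy5 throughout (-0.22; unadjusted p = 0.516), with array weights (unadjusted p = 0.0935), or without array 1 (-0.43; unadjusted p = 0.171), array 2 (-0.42; unadjusted p = 0.0526) or array 3 (-0.74; unadjusted p = 0.0675). INHA and INHBA (inhibin alpha and beta A) were 0.19 (SE 0.14) and -0.17 (SE 0.15), and BMP7 was -0.07 (SE 0.07).

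Among other receptors 2 of 7 were above 0 (median -0.02; 0 by the looser rule). BMPR1B and BMPR1A, type I receptors for bone morphogenetic proteins, were -0.16 (SE 0.10) and -0.03 (SE 0.07). AMHR2, the anti-Mullerian hormone receptor, was 0.14 (SE 0.10) and ENG (endoglin, an endothelial co-receptor for TGF-beta) was 0.10 (SE 0.12). These values were of the size of their errors.

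The SMADs and their partners had 2 of 9 genes above 0 (median -0.08). SMAD3, the direct substrate of TGFBR1, had processed signals of 6094, 5187, 3734 and 5032 with OXA, against 10333, 7242, 5182 and 6913 in control, lower on 4 of 4 arrays. Log2 ratios were -0.93, -0.50, -0.02 and -0.48 with normexp and -0.98, -0.43, -0.46 and -0.44 with no background correction, the 2 settings differing most on array 3. The fitted value was -0.48 (SE 0.17; unadjusted p = 0.0492 and adjusted p = 0.763 in limma), and its other probe gave -0.22. Without array 1 the fitted value was -0.26 (fold 0.837), a change too small for the looser rule. The looser rule was not met with median centring (-0.15), taking OXA to be Cy5 throughout (0.01), with an intensity trend (unadjusted p = 0.112), with no filter on dim probes (unadjusted p = 0.0652) or without array 2 (unadjusted p = 0.0512). XIAP was -0.16 (SE 0.09), SMAD2 -0.11 (SE 0.11) and MAP3K7 (the kinase TAK1) 0.06 (SE 0.06).

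Inhibitors of the pathway had 2 of 4 above 0 (median 0.00; 0 by the looser rule). FST (follistatin, which binds activins) was 0.18 (SE 0.10), SMAD7 (the inhibitory SMAD) -0.28 (SE 0.18), DCN (decorin, a proteoglycan that binds TGF-beta) 0.43 (SE 0.38) and PMEPA1 -0.18 (SE 0.17). With normexp SMAD7 was -0.91 on array 1 and between -0.18 and 0.03 on the others. With no background correction its fitted value was -0.44 (SE 0.19; unadjusted p = 0.06 in limma).

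Transcriptional targets of TGF-beta had 11 of 20 above 0 (median 0.03), with members on both sides. The 3 targets named here did not meet the looser rule. KLF10 (the TGF-beta inducible early gene) was -0.20 (SE 0.09). LOX, which cross-links collagen, was 0.31 (SE 0.16) and ID1, an inhibitor of differentiation factors, 0.55 (SE 0.28). On array 1 the targets had a median of 0.27, against -0.17 to 0.05 on the other arrays. The median of the 3 stromal markers on array 1 was 1.44. It is the value of COL1A2, which is also among the 20 targets, so the 2 sets overlap. On that array LOX was 1.07, ID1 1.21 and KLF10 -0.71, so the 3 named targets were of both signs. ID1 was also 0.96 on array 4, where the stromal median was 0.26. The part of stromal content in these ratios was not tested.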

How the data were processed

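The authors deposited the scanner files of 4 2-colour arrays. Per the file headers these come from Agilent's Feature Extraction, version 10.7.3.1, and hold median spot and background intensity, processed intensity, and Cy5 over Cy3 as a log10 ratio. Their deposited value table holds log2 ratios, which ran as OXA over control when set against the scanner ratios (slopes 1.06, -1.00, 1.04 and -1.03 on arrays 1 to 4; medians -0.17, 0.06, -0.06 and 0.09). How its columns were centred is unknown. 

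Here median intensities were corrected by normexp (offset 50), normalized by loess within arrays, and fitted with coefficients for OXA and dye (limma 3.58.1, R 4.3.3; 2 residual degrees of freedom, 3.88 after moderation). Control and outlier spots were left out, spots of a probe averaged, and probes kept when well above background in at least 4 of 8 readings (26927 of 43603). P-values were adjusted by Benjamini-Hochberg over all of these. Of 7125 probes with a RefSeq accession 6700 matched the Sscrofa11.1 gene table. A gene was represented by its brightest kept probe. No genome build is named for the array, so no positions are given. Array 1 being alone on its slide, the values within the other slide are those without array 1. From each pathway list up to 4 genes of lowest unadjusted p were named, and for a member with an SD of at least 0.3 over arrays the 3 nearest genes. Of the measured pathway genes 1 is kept in counts and medians but is not reported or drawn here. The members and lists were chosen with earlier results of these data known. Normexp was kept as the chosen setting although its fitted background means were below 0. Alternatives changed the background correction, normalization, filter, dye term, moderation, array weights, dye reading and arrays included.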

Additional observations from a re-analysis of the deposited data

Results flagged for a closer look

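A lone array stood far from the other 3 in 3 of 28 probes and genes examined (5 member probes and 23 named pathway genes), where chance marks about 1 in 20. The dimmer TGFB1 probe was -0.38 on array 2. INHA was 0.74 on array 1, against 0.00 to 0.01 on the others. SMAD2 was -0.52 on array 1. All 3 are normexp ratios, and normexp added a median of 437 to 2350 units on arrays 2 to 4, against 94.0 to 130 on array 1. Ratios of dim spots were thus drawn toward 0 more on arrays 2 to 4. The rate of 1 in 20 takes no account of this, and its part in the flags was not tested.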

How the results depend on the processing

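Each ratio already sets an OXA RNA against the control RNA of its array, so the fits are paired by array. This leaves no further block to fit. The sample labels do not say whether the RNAs of an array came from a single animal. No alternative gave a TGFB1, TGFB3 or TGFBR1 value past an adjusted p of 0.05. The brighter TGFB1 probe kept its sign under all alternatives run, but the dimmer one (-0.06) did not. The dimmer probe turned to 0.135 with median centring, 0.112 with OXA as Cy5 and 0.047 without array 2. It was 0.108 with OXA as Cy5 and no background correction. TGFBR3 entered a fit only with no filter on dim probes and did not pass there (adjusted p = 0.739), and TGFB2 and TGFBR2 entered none. TGFB3 turned to 0.17 with median centring, 0.103 when OXA is taken to be Cy5 throughout and 0.034 without array 3 (-0.10 to 0.03 over single arrays left out). TGFBR1 turned to 0.029 with median centring, to 0.006 with OXA as Cy5 and to 0.046 with that reading and no background correction. Over single arrays left out the brighter TGFB1 probe was 0.00 to 0.13, the dimmer one -0.17 to 0.05 and TGFBR1 -0.03 to 0.00. The pathway median was -0.04 to 0.01. That median moved to 0.20 with median centring. Probes past the adjusted threshold numbered 3 with an intensity trend and 0 to 6 over single arrays left out, against 0. The looser count was 349. It was 1406 with no background correction, 4292 with median centring, 1829 with Agilent's log ratio, 1824 with the authors' table, 193 with array weights and 679 with OXA read as Cy5. It was 285 to 3115 over single arrays left out. Of 2 settings chosen after the data were seen, normexp from negative control spots gave 2367 and OXA as Cy5 with no background correction 1138. The cause was not tested, apart from the background values given above.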

Other observations

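With no background correction 8 of 63 measured pathway genes had an unadjusted p under 0.05 in limma, 3 higher and 5 lower with OXA. Among all 2407 named genes 151 did, 28 of them higher and 123 lower. Of the 63 pathway genes 0 passed the adjusted threshold. The higher pathway genes were ITGB3 (0.61), ID1 (0.55) and COL5A1 (0.48), a chain of fibrillar collagen. The lower ones included GDF15, SMAD3, CTGF (-0.80), a matricellular target of TGF-beta, and LIF (-0.40), a cytokine of implantation. CTGF, COL5A1 and LIF were singled out after their values were seen. With normexp CTGF stood at -2.15 on array 1, and between -0.46 and 0.03 elsewhere.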
